A study of Mus musculus with 8 samples.

Results

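Sugar and peptide uptake across the intestinal brush border was followed through 10 genes: Sis, Lct, Treh, Slc5a1, Slc2a2, Slc2a5, Slc15a1, Anpep, Vil1 and Khk. They were chosen by function, and each locus was its RefSeq gene body (GRCm38) plus 50 kb on each side. All 10 were found among 21883 protein-coding genes. The data were peaks of 2 histone acetylation marks, H3K27ac and H3K9ac, measured by CUT&Tag, which uses an antibody to bring a DNA-cutting transposase to marked chromatin. Crypts of the small intestine, shaken free and dissociated to single cells, came from male C57BL/6J mice aged 9 weeks. The 4 groups of each mark were Fed (-Tetra), Fast (-Tetra), Fed (+Tetra) and Fast (+Tetra). Fast mice had 24 h without food, and (+Tetra) mice had received tetracycline for 21 days. No group carried a transgene or deletion. Each of the 8 samples came with 2 peak lists, numbered 1 and 2 in the names of the deposited files. The labels do not say whether the 2 lists came from different mice, so p-values measure the spread between lists, which may be technical.

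Starch, sucrose, lactose and trehalose are cut to single sugars by enzymes anchored on the microvilli, and the sugars then enter the enterocyte through sodium-coupled or facilitative transporters. Protein reaches the same surface as short peptides, which are trimmed by peptidases or carried in whole with protons. These genes are best known for high expression in the absorptive enterocytes that leave the crypt and cover the villus. H3K27ac marks active promoters and enhancers, while H3K9ac lies mostly at active promoters and the adjoining start of the gene.

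Promoters are printed for 5 of the genes, because the acetylation peaks stood over the start of Sis, Slc5a1 and, in some lists, Lct, but beside the start of Slc2a5 and Anpep. Each is RefSeq sequence of GRCm38.p6, from 250 bases before to 50 bases after the start, 5′ to 3′ on the gene's strand. Capitals mark matches on either strand to 7 motifs, those of HNF1 (a single site and the palindrome), CDX, GATA, HNF4, the TATA box and the E-box, whose letters are given with their counts. The HNF1 palindrome is made of facing single sites, and in Sis 2 TATA box matches on opposite strands overlap. The windows are chr3:72967814-72968113 (minus strand) for Sis, chr1:128328269-128328568 (minus) for Lct, chr5:33103969-33104268 (plus) for Slc5a1, chr4:150119094-150119393 (plus) for Slc2a5 and chr7:79848161-79848460 (minus) for Anpep.
Sis: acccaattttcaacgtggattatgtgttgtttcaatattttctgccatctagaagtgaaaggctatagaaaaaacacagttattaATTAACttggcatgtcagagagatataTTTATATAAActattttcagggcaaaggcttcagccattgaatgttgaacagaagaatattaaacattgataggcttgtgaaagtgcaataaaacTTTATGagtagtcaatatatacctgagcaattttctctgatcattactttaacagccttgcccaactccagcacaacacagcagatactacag
Lct: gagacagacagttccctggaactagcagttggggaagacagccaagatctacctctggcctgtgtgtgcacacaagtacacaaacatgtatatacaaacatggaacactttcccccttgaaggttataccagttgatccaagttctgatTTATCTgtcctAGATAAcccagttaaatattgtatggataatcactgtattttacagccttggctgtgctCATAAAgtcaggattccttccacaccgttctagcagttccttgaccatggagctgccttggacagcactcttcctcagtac
Slc5a1: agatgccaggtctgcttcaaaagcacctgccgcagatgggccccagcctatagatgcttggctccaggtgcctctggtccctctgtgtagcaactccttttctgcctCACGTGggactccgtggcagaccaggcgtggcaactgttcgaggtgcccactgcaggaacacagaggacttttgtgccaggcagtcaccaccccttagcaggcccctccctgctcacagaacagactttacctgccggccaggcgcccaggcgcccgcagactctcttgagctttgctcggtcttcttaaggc
Slc2a5: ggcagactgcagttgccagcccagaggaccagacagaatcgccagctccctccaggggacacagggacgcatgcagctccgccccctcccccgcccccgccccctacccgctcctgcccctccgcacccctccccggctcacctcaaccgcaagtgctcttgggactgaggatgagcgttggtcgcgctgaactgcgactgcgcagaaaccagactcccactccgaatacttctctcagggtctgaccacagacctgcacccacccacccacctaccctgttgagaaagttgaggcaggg
Anpep: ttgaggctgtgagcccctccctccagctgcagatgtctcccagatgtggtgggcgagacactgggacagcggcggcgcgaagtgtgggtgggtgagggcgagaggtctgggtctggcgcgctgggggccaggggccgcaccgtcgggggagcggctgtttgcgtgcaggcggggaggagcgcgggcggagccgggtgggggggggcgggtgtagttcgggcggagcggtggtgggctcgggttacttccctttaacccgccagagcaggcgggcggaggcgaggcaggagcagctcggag

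The Sis window was 34% G and C with 1 CpG, against a median of 56.3% and 13 CpG over 21262 promoters of this length. The Sis promoter held an HNF1 single site, a CDX match and the TATA box matches. Lct had a GC share of 44.7%, also with 1 CpG, and held a CDX match and 2 GATA matches. HNF1, CDX2 and GATA4 are known as activators of both genes. Slc5a1 (60.3% GC) held 1 palindromic E-box. The windows of Slc2a5 (65.3% GC, 15 CpG) and Anpep (72.3% GC, 28 CpG) held no match to any of the motifs. Among all 10 genes the HNF1 single site, with the letters GTTAAT, occurred in the windows of Sis and Khk and in 6.25% of all promoters. The CDX motif, searched as CATAAA, occurred at Lct and Sis among the 10 genes and in 9.71% of all promoters. For GATA factors the letters were AGATAA, which occurred at Lct and in 9.65% of all promoters. The HNF4 single site, CAAAGT, was the most frequent of those searched, and lay in the windows of Slc2a2, Treh and Slc15a1 and in 13.4% of all promoters. The TATA box was searched as TATAAA, which Sis alone of the 10 genes held, beside 12.6% of all promoters. The E-box, CACGTG, which reads the same on both strands, was present at Khk and Slc5a1 and in 7.84% of all promoters. The HNF1 palindrome was in none of the 10 and in 0.0047% of all promoters.

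Peaks covered at least part of this 300-base window of Slc5a1, Slc15a1, Vil1, Khk and Sis in all 8 lists of both marks. The Slc2a5 window was touched in 1 H3K27ac list and no H3K9ac list, and the Anpep window in 1 and 2 lists. Lct was touched in 3 and 5 lists, Treh in 8 and 6, and Slc2a2 in 7 and 8.

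At the wider scale of 1 kb around the annotated start, 8 of the 10 genes carried an H3K27ac peak in all 8 lists, the exceptions being Lct and Anpep. Of all protein-coding genes, 33.6% had an H3K27ac peak within 1 kb of either end in all 8 lists. H3K9ac peaks lay there in all 8 lists for 6 genes (Sis, Slc5a1, Slc2a2, Slc15a1, Vil1 and Khk), against 21.1% of all genes. At the far end of the gene, Vil1 alone had an H3K27ac peak in every list (4.56% of 17491 genes with a strand), and that peak also lay at the end of the neighbouring Usp37. No gene of the 10 had an H3K9ac peak at its far end in every list (1.37%). The absence of a peak in a list means that none passed the authors' cutoff there, at a depth that is unknown.

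**Figure D1:**
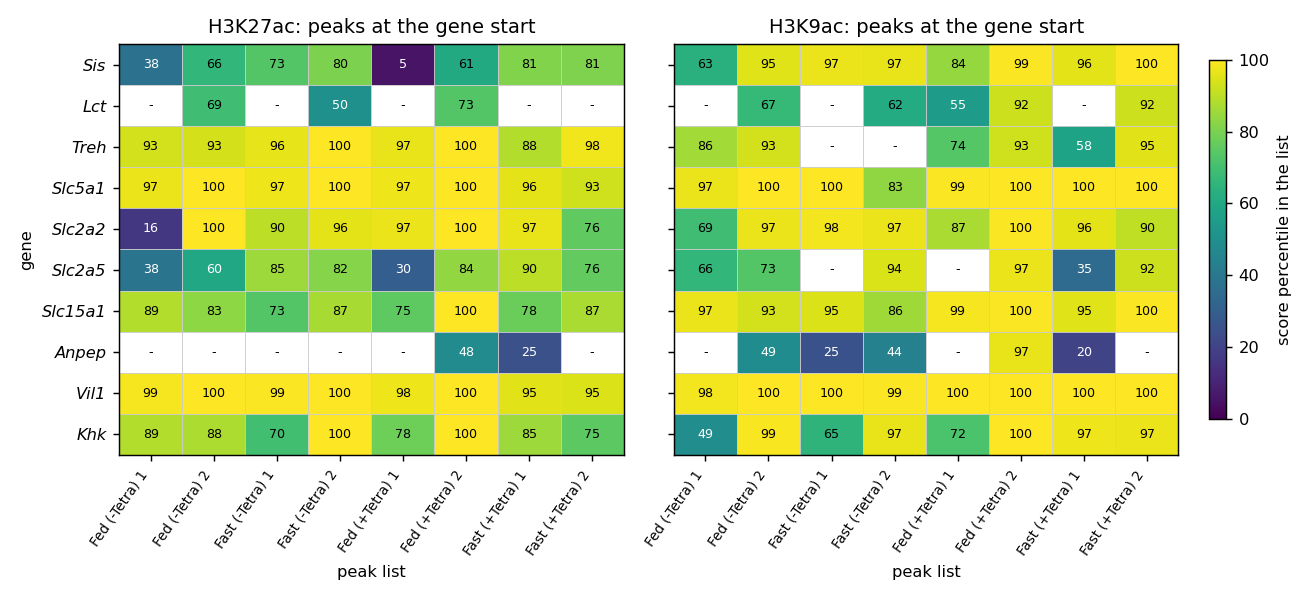
Peaks within 1 kb of the annotated start of the 10 genes (rows) in the 8 lists (columns) of H3K27ac (left) and H3K9ac (right). Colour and number give the percentile, among all peaks of its list, of the score of the strongest start peak, and white cells marked with a dash have no peak. Vil1 and Slc5a1 filled every cell, with percentiles of at least 92.7 in H3K27ac, while Anpep was filled in 2 H3K27ac and 5 H3K9ac lists.

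Sis encodes sucrase-isomaltase, which splits sucrose and the branch points of starch. Its gene (chr3:72888557-72967863, minus strand, with no other gene within 50 kb) had a start peak in all 16 lists. The H3K27ac start peak was 450 to 924 bp wide. It ranked at percentiles of 37.7 and 66.2 in the Fed (-Tetra) lists, 73.2 and 80.4 in Fast (-Tetra), 5.44 and 60.6 in Fed (+Tetra), and 81.0 and 80.6 in Fast (+Tetra). In H3K9ac the strongest peak within 1 kb of the start ranked at 63.3 and 95.2, 96.9 and 96.8, 84.0 and 99.4, and 95.7 and 99.6 in the same order. The peaks at 99.4 and 99.6 were 1937 and 1901 bp wide. They lay in the second H3K9ac region named below, which reached into the gene. Ranks from lists of different lengths cannot show whether the mark changed.

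Inside the Sis gene, beyond 1 kb from its ends, H3K27ac peaks stood in 4 of 4 Fast lists and 1 of 4 Fed lists, the second Fed (+Tetra) list. No site was shared by all of them. Of 4 body regions, 3 were in a single list, and the other was in 2 lists at a median percentile of 6.37. The only inside peak of the first Fast (+Tetra) list lay in none of these. It fell in a merged region reaching within 1 kb of the start, chr3:72965629-72967161, with peaks in 2 Fed and 3 Fast lists. Peaks of that region counted as start or inside peaks by the 1 kb line, on which the split thus partly rests. The share of all genes with such a split was not computed, and 72.4% of all genes had higher H3K27ac coverage in Fast on average. H3K9ac peaks stood inside the Sis gene in all 8 lists. Besides the start region chr3:72967396-72968202, H3K9ac had a second region within 1 kb of the start that reached into the gene, chr3:72963818-72967233, with peaks in all 8 lists. A further 11 H3K9ac regions lay deeper in the Sis gene, 7 of them in a single list. H3K27ac covered 1.24% and 0.621% of the Sis gene window (gene body plus 1 kb each side) in Fed (-Tetra), 1.87% and 2.26% in Fast (-Tetra), 0.802% and 2.62% in Fed (+Tetra), and 1.31% and 2.49% in Fast (+Tetra). H3K9ac covered 1.11% and 7.12%, 1.49% and 5.89%, 2.996% and 8.04%, and 2.22% and 8.68%. In both marks the Fast and Fed lists overlapped. A pair of H3K27ac regions upstream of Sis had peaks in all 8 lists, at 8.93 kb (chr3:72976315-72977267) and 35.6 kb (chr3:73002874-73004079) from the start.

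Lct encodes lactase, the enzyme of milk sugar, which is known to decline after weaning. At its start (chr1:128284756-128328318, minus strand) H3K27ac peaks were found in 3 lists, the second lists of Fed (-Tetra), Fast (-Tetra) and Fed (+Tetra). In every H3K27ac list, however, a peak lay within 1 merged region reaching from the start into the gene, chr1:128321887-128328876. H3K27ac covered 9.56% and 13.1% of the Lct gene window in Fed (-Tetra), 4.65% and 11.9% in Fast (-Tetra), 3.96% and 21.0% in Fed (+Tetra), and 4.61% and 9.83% in Fast (+Tetra). H3K9ac covered 0% and 10.4%, 3.99% and 1.57%, 4.98% and 15.0%, and 4.82% and 9.40%. The second Fed (+Tetra) list was the highest in both marks. Both flank regions of Lct with H3K27ac peaks in all 8 lists lay at ends of other genes, Ubxn4 and Mcm6.

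Treh encodes trehalase, which splits the disaccharide of fungi and insects. Its start (chr9:44673233-44686305, plus strand) carried H3K27ac peaks in all 8 lists, at percentiles of 88.4 to 99.7. H3K9ac was different. It covered 14.7% and 18.7% of the Treh gene window in Fed (-Tetra), 0% and 0% in Fast (-Tetra), 15.4% and 24.2% in Fed (+Tetra), and 16.2% and 10.8% in Fast (+Tetra). Neither Fast (-Tetra) list held a Treh peak, and 1 of the Fast (+Tetra) lists lay above 2 Fed lists. Averaged over both tetracycline states, H3K9ac covered 6.74 ± 8.10% (SD, n = 4 lists) in Fast and 18.2 ± 4.34% (SD, n = 4) in Fed, a difference of -11.5 points (p = 0.11 by two-sided exact permutation, 1.0 after adjustment over all genes). H3K27ac covered 29.2% and 37.4%, 26.2% and 45.5%, 29.7% and 52.3%, and 32.8% and 39.8% of the same window, with no such gap. An H3K27ac region in the Treh gene body, chr9:44678306-44680391, had peaks in all 8 lists.

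Slc5a1 encodes SGLT1, the sodium-coupled carrier of glucose and galactose at the brush border. Its start (chr5:33104219-33162699, plus strand) was among the strongest of the 10 genes, with percentiles of 92.7 to 99.8 in H3K27ac and 83.3 to 99.99 in H3K9ac. The H3K27ac start peak was 2306 to 5727 bp wide. In H3K9ac it was 1651 to 6480 bp wide, and the merged region, chr5:33103452-33111877, spanned 8426 bp from just upstream of the start into the gene. Upstream of Slc5a1, where no other gene lies within 50 kb, 4 H3K27ac regions had peaks in all 8 lists, at 12.5, 19.6, 26.9 and 47.5 kb from the start. The strongest of these, chr5:33075771-33078809, had a median percentile of 93.7, and all 4 overlapped an H3K9ac region.

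H3K27ac covered 8.19% and 12.95% of the Slc5a1 gene window in Fed (-Tetra), 9.19% and 10.2% in Fast (-Tetra), 7.61% and 13.5% in Fed (+Tetra), and 9.81% and 9.47% in Fast (+Tetra). All 4 Fast lists lay within the range of the Fed lists. H3K9ac covered 8.50% and 16.6%, 7.78% and 16.4%, 12.4% and 23.7%, and 10.7% and 16.5%.

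Slc2a2 encodes GLUT2, the facilitative hexose carrier of the basolateral membrane. At its start (chr3:28697903-28728361, plus strand) H3K27ac peaks were present in all 8 lists, at percentiles of 16.1 to 99.7. H3K27ac covered 18.2% and 27.01% of the Slc2a2 gene window in Fed (-Tetra), 14.5% and 18.7% in Fast (-Tetra), 16.04% and 42.3% in Fed (+Tetra), and 19.7% and 24.6% in Fast (+Tetra). The second Fed (+Tetra) list stood above the other 7 in H3K27ac, and again in H3K9ac, where coverage was 8.89% and 20.1%, 13.1% and 20.1%, 15.6% and 30.6%, and 10.4% and 17.7%. A body region 7.66 kb inside Slc2a2, chr3:28703808-28707308, had H3K27ac peaks in all 8 lists, and the H3K9ac region overlapping it, chr3:28703943-28707073, had H3K9ac peaks in all 8.

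Slc2a5 encodes GLUT5, the fructose carrier of the brush border. Its annotated start (chr4:150119344-150144168, plus strand) fell between 2 H3K27ac regions. The upstream one, chr4:150117987-150118965, had peaks in 7 lists, and the other, chr4:150119363-150122205, in all 8. The start peak of Slc2a5 ranked at percentiles of 30.1 to 90.1 in H3K27ac. In H3K9ac it was in 6 lists and missing from the first Fast (-Tetra) and first Fed (+Tetra) lists.

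H3K27ac covered 15.5% and 21.2% of the Slc2a5 gene window in Fed (-Tetra), 21.5% and 24.9% in Fast (-Tetra), 19.4% and 35.7% in Fed (+Tetra), and 17.8% and 22.4% in Fast (+Tetra). Without tetracycline both Fast lists were above both Fed lists, and with tetracycline they lay between the Fed lists or below them. H3K9ac covered 10.1% and 9.88%, 4.22% and 10.4%, 3.08% and 13.2%, and 13.5% and 10.9%. Of the flank regions of Slc2a5, 7 had H3K27ac peaks in all 8 lists, led by chr4:150152027-150153407, which lay 33.4 kb from the start at a median percentile of 95.3. Others in this group included the region chr4:150146638-150149985, at an end of the neighbouring hexose carrier gene Slc2a7.

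**Figure D2:**
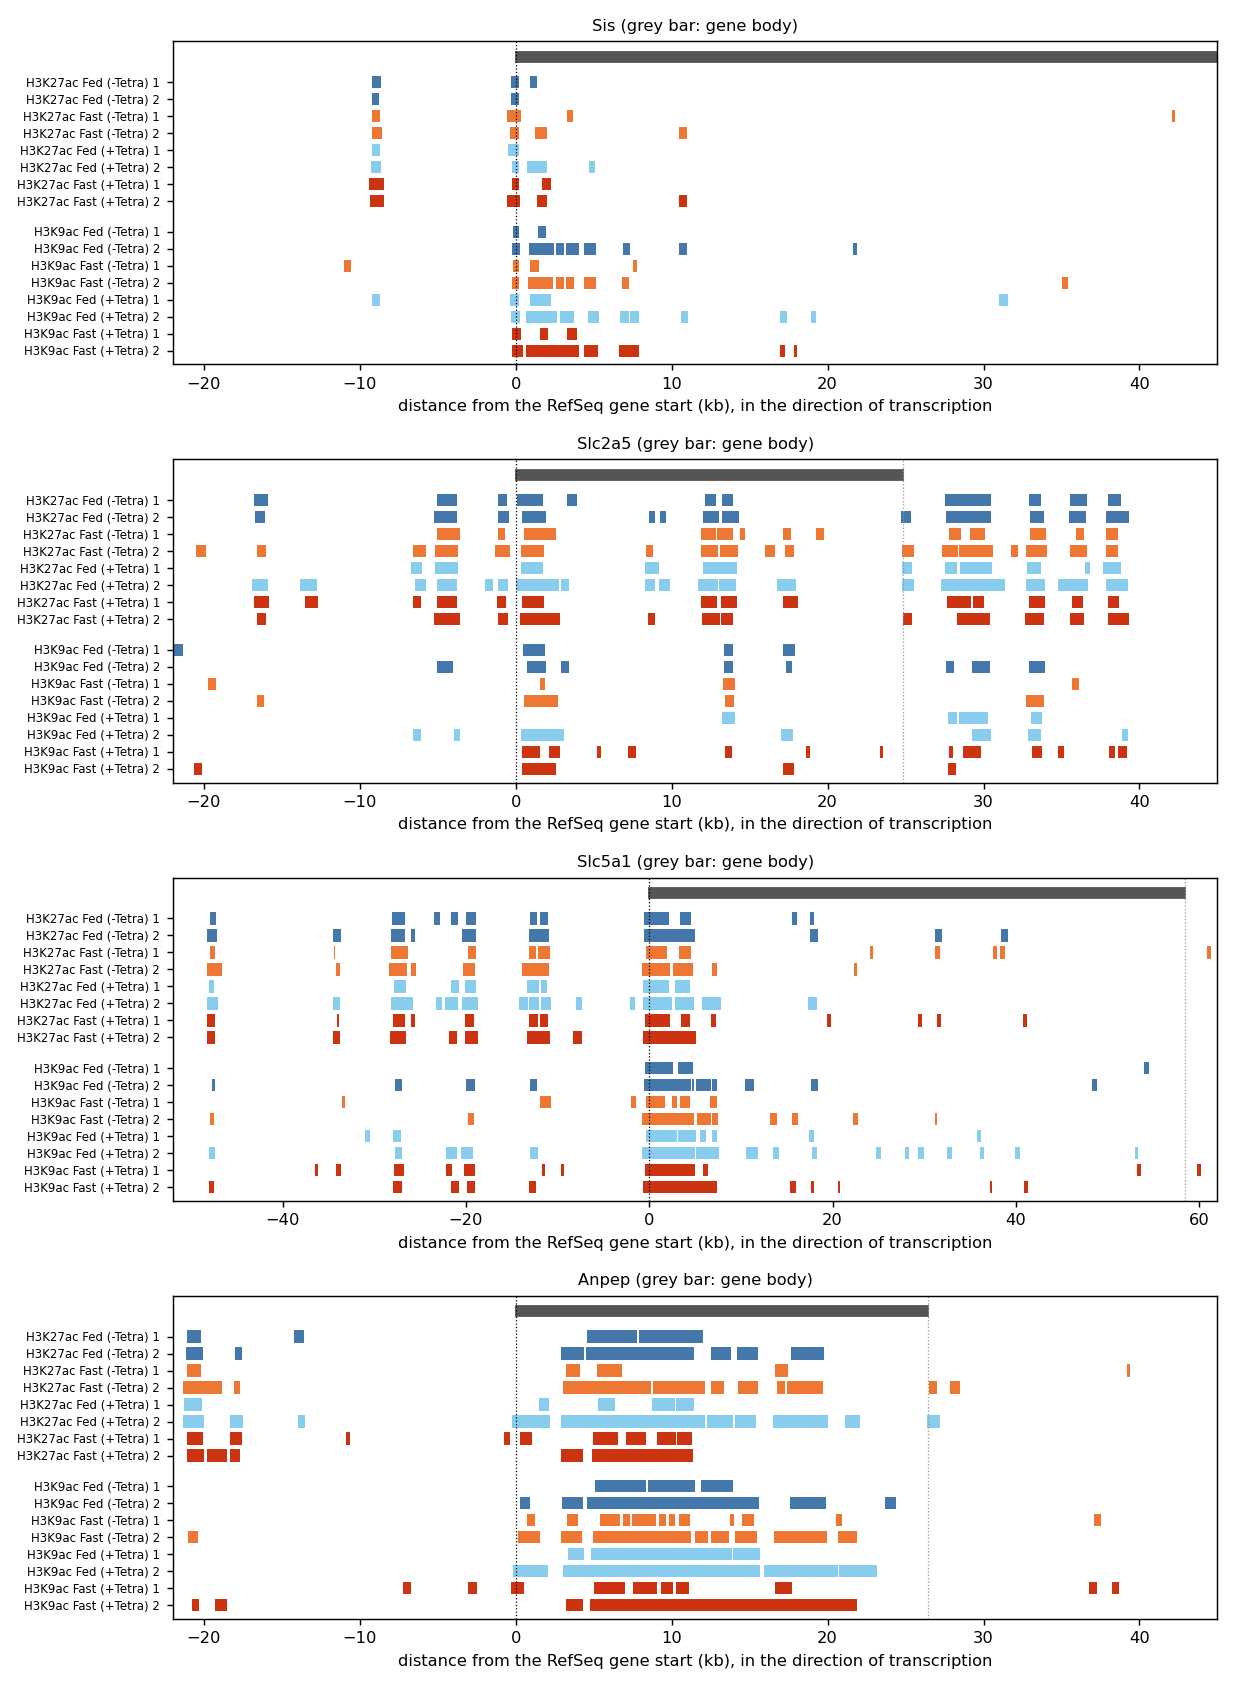
Peaks of every list along 4 loci, Sis, Slc2a5, Slc5a1 and Anpep, against the distance in kb from the annotated start in the direction of transcription. Each row is 1 list (8 of H3K27ac above, 8 of H3K9ac below, coloured by group) and each block 1 peak. Peaks stood over the start of Sis and Slc5a1 in all lists, while within the Anpep gene they stood around the region centred 7500 bp inside it, with further peaks in the flanks.

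Slc15a1 encodes PEPT1, which carries dipeptides and tripeptides with protons. Both marks had a peak at its start (chr14:121459621-121505254, minus strand) in all 8 lists, at percentiles of 73.4 to 99.6 in H3K27ac and 85.8 to 99.5 in H3K9ac. H3K27ac covered 15.7% and 25.2% of the Slc15a1 gene window in Fed (-Tetra), 15.4% and 23.2% in Fast (-Tetra), 15.0% and 33.5% in Fed (+Tetra), and 16.2% and 21.5% in Fast (+Tetra). H3K9ac covered 5.22% and 16.9%, 8.93% and 11.4%, 15.2% and 26.8%, and 7.60% and 12.7%. Both Fed (+Tetra) lists were above both Fast (+Tetra) lists in H3K9ac, which was not the case in H3K27ac. In the gene body of Slc15a1, 3 H3K27ac regions had peaks in all 8 lists, at 7.26, 10.7 and 33.2 kb from the start. A further 4 lay in its flanks, the strongest being chr14:121424586-121426727 at a median percentile of 90.6.

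Anpep encodes aminopeptidase N, which removes single residues from peptides at the microvillus surface. The gene is known to be transcribed from separate promoters in myeloid and epithelial cells. At its annotated start (chr7:79821803-79848210, minus strand), H3K27ac peaks were found in the second Fed (+Tetra) and the first Fast (+Tetra) lists only, at percentiles of 48.2 and 24.98. H3K9ac peaks were found there in 5 lists, at percentiles of 20.4 to 96.6. Inside the gene, however, both marks had peaks in all 8 lists, the strongest at percentiles of 44.7 to 99.9 in H3K27ac and 71.5 to 99.99 in H3K9ac. The H3K27ac region chr7:79836096-79845326 was 9231 bp long, centred 7500 bp from the start, at a median percentile of 94.2. The H3K9ac region that overlapped it, chr7:79825070-79845311, was 20242 bp long at a median percentile of 99.6.

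H3K27ac covered 25.6% and 46.6% of the Anpep gene window in Fed (-Tetra), 12.0% and 51.0% in Fast (-Tetra), 15.4% and 70.1% in Fed (+Tetra), and 22.1% and 27.5% in Fast (+Tetra). The 2 lists of 1 group thus differed by up to 54.7 points. H3K9ac covered 29.5% and 56.6%, 26.4% and 59.95%, 41.4% and 77.8%, and 24.9% and 64.1%. Upstream of Anpep, 4 H3K27ac flank regions had peaks in all 8 lists, the strongest at chr7:79889423-79897106, 45.1 kb from the start.

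Vil1 encodes villin, the actin-bundling protein of the microvillus core. At its start (chr1:74409384-74435560, plus strand) the H3K27ac peak ranked at percentiles of 94.6 to 99.7 and the H3K9ac peak at 98.4 to 99.99. The merged H3K27ac start region, chr1:74405940-74416412, was 10473 bp long, and the H3K9ac region was 8038 bp. H3K27ac covered 34.5% and 45.3% of the Vil1 gene window in Fed (-Tetra), 35.1% and 49.1% in Fast (-Tetra), 36.2% and 51.1% in Fed (+Tetra), and 41.7% and 45.1% in Fast (+Tetra). H3K9ac covered 20.9% and 52.5%, 27.9% and 26.8%, 25.7% and 49.0%, and 21.3% and 35.5%. The highest 2 H3K9ac lists were Fed lists, and the lowest was also a Fed list.

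Khk encodes ketohexokinase, which phosphorylates fructose in the cytosol after its uptake. Both marks peaked at its start (chr5:30921436-30931248, plus strand) in all 8 lists, in a locus that holds 7 other genes. The H3K27ac region chr5:30919857-30928427 covered most of this short gene and also reached the end of Emilin1. H3K27ac covered 37.5% and 62.7% of the Khk gene window in Fed (-Tetra), 31.7% and 66.9% in Fast (-Tetra), 39.0% and 65.7% in Fed (+Tetra), and 45.4% and 62.6% in Fast (+Tetra). H3K9ac covered 14.6% and 35.5%, 16.8% and 37.5%, 34.2% and 57.6%, and 18.8% and 39.3%. Every second list of Khk was above the first list of its group in both marks.

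**Figure D3:**
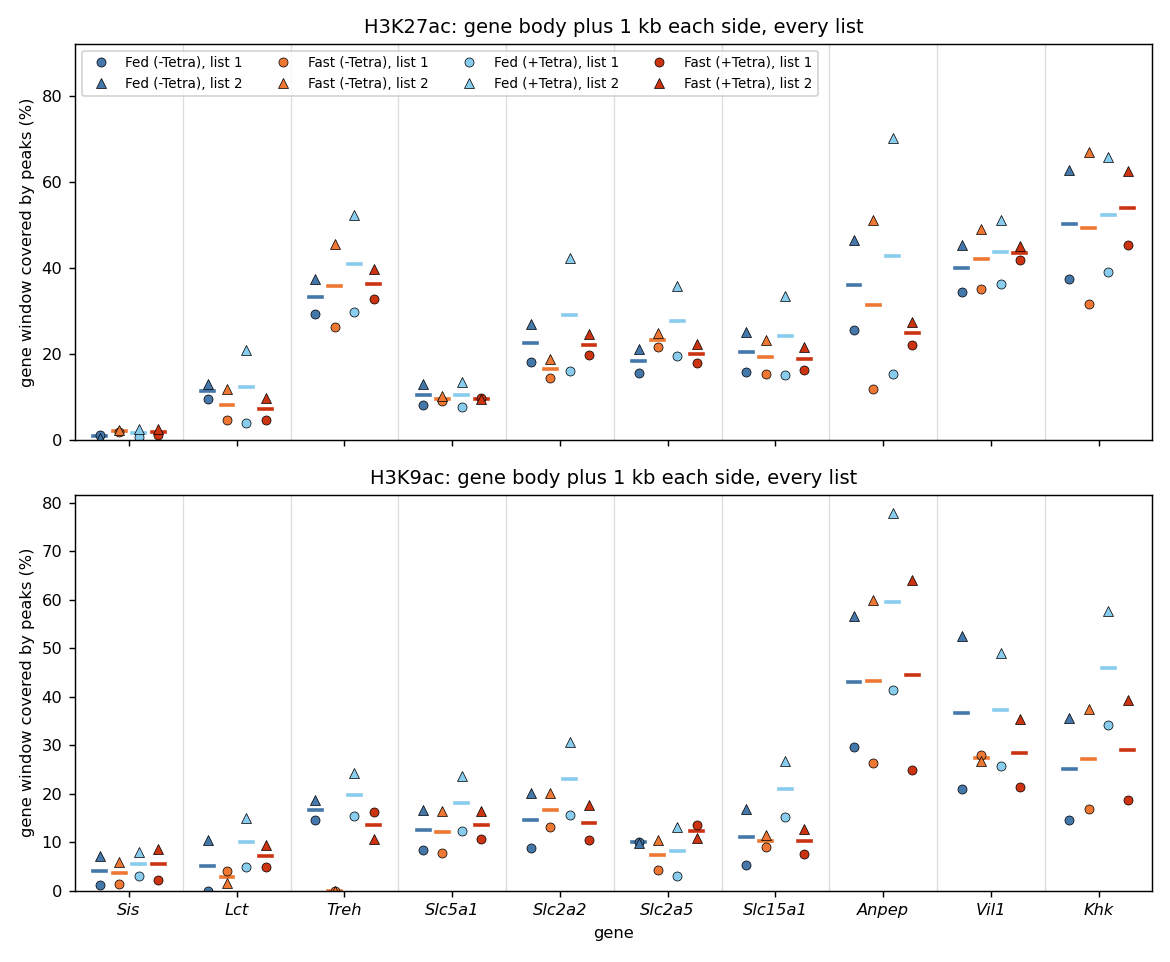
Percent of the gene window (gene body plus 1 kb each side) covered by H3K27ac (top) and H3K9ac (bottom) peaks for the 10 genes. Each point is 1 list, coloured by group, with circles for list 1 and triangles for list 2, and bars give the mean of the 2 lists. Triangles stand above circles in 38 of 40 gene and group pairs of H3K27ac and 34 of 40 of H3K9ac, and the Fast and Fed lists overlap for each gene.

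Fasting was compared with feeding over both tetracycline states by permuting feeding exactly within each of them. The 36 arrangements allow no two-sided p below 0.056, so no gene could pass 0.05. In place of a call, the number of genes whose 4 Fast lists lay all above or all below the 4 Fed lists was counted. None of the 10 genes met this in either mark. Over all genes with any coverage, 4.77% lay above and 0.385% below in H3K27ac, and 2.62% and 0.635% in H3K9ac.

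On average, 7 of the 10 genes had lower H3K27ac coverage in Fast than in Fed, against 27.6% of all genes. The median difference was -1.20 points over the 10 genes and 0.53 over all genes. In H3K9ac 9 of the 10 were lower in Fast, against 34.0% of all genes, with medians of -4.67 and 0.46 points. The largest H3K27ac differences were at Anpep (-11.3 points, exact p = 0.56) and Slc2a2 (-6.51 points, exact p = 0.44). In H3K9ac, Treh (-11.5 points) was followed by Vil1 (-9.15 points, exact p = 0.44), Anpep (-7.48 points, exact p = 0.67), Khk (-7.40 points, exact p = 0.67) and Slc15a1 (-5.86 points, exact p = 0.28). Sis differed by 0.66 points in H3K27ac (exact p = 0.33) and by -0.25 points in H3K9ac (exact p = 0.83). Adjusted over all genes by Benjamini-Hochberg, every one of the 10 had an adjusted p of 1.0 in both marks, and the smallest of any gene was 0.919 in H3K27ac and 1.0 in H3K9ac. With coverage divided by the covered length of each list, relative to the mean of the lists, 9 of the 10 genes were lower in Fast in H3K27ac and all 10 in H3K9ac, beside 52.9% and 55.1% of all genes. The median difference of the 10 was then -6.98 points in H3K27ac and -7.30 in H3K9ac, and that of all genes moved from 0.53 to -0.11 and from 0.46 to -0.21 points.

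The counts depended on which lists were used, and most on 1 of them. The second list of Fed (+Tetra) had the highest H3K27ac coverage of all 8 lists for 9 of the 10 genes, all but Khk, and 14.4% of all genes were highest there. In H3K9ac it was the highest for 7 of the 10 genes, all but Sis, Slc2a5 and Vil1, and for 15.0% of all genes. In H3K27ac only the second Fast (-Tetra) list covered more of the genome, and no other Fed or tetracycline list was as large. In H3K9ac the second Fed (-Tetra) list and both first Fast lists covered more. Peaks of the second Fed (+Tetra) list spanned 56.0 Mb in H3K27ac, where the largest list spanned 64.2 Mb. In H3K9ac they spanned 37.7 Mb, where the largest list spanned 47.3 Mb. Without this list, 0 of the 10 genes were lower in Fast in H3K27ac, with a median difference of 1.88 points, beside 18.9% of all genes and a median of 0.92. In H3K9ac 5 of 10 were then lower, with a median of 0.07 points, beside 25.8% of all genes and a median of 0.71. Without the second Fed (-Tetra) list, 4 of 10 were lower in H3K27ac. Leaving out the second Fed (+Tetra) list left that group with its first list alone. In H3K27ac this was the smallest list, with 32392 peaks over 33.1 Mb, and in H3K9ac it spanned 21.5 Mb. Coverage was not scaled to list size here, and the part of list size in the change was not tested. Those without-list values were added after the data had been seen.

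Epithelial markers were also high in the second Fed (+Tetra) list. The mean coverage of 10 villus enterocyte markers (such as Apoa4, Fabp2 and Alpi) was highest in it, at 50.7% in H3K27ac, where the other lists spanned 26.0% to 45.6%. In H3K9ac it was 54.95% there and 19.02% to 47.7% elsewhere. Of the 10 markers, 7 had their highest coverage in that list in each mark. The 10 general epithelial markers were at 63.5% there in H3K27ac, the highest of 8 lists by a small margin, and at 58.1% in H3K9ac, the second highest. Mean coverage of 8 crypt base markers (such as Lgr5, Olfm4 and Lyz1) was 0.726% to 3.51% in the Fed lists and 3.42% to 12.9% in the Fast lists in H3K27ac, and 0.234% to 3.83% and 3.16% to 5.15% in H3K9ac. Higher average coverage in Fast was also found for 72.4% of all genes in H3K27ac and 65.9% in H3K9ac. The villus markers had a median Fast minus Fed difference of -3.51 points in H3K27ac and -3.07 in H3K9ac. The part of these markers in the differences at the 10 genes was not tested. In such bulk samples, fewer cells of a type and less mark per cell cannot be told apart.

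Tetracycline was compared with its absence within each feeding state in the same way. None of the 10 genes had non-overlapping lists. Over all genes, 0.223% lay above and 1.29% below in H3K27ac, and 0.694% and 0.416% in H3K9ac. Averaged over both feeding states, 8 of the 10 genes were higher with tetracycline in H3K27ac (34.0% of all genes), with a median difference of 2.11 points against -0.32 over all genes. All 10 genes were higher in H3K9ac (53.9% of all genes), with medians of 4.03 and 0.09 points.

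The H3K9ac differences ran from 0.84 points at Vil1 (exact p = 0.94) to 11.3 points at Khk (exact p = 0.22). Treh was higher with tetracycline by 8.32 points (exact p = 0.11), from 8.33 ± 9.76% without it to 16.7 ± 5.59% with it (SD, n = 4 lists each). Lct differed by 4.57 points (exact p = 0.28) and Slc5a1 by 3.50 points (exact p = 0.44). In H3K27ac the largest differences were 6.06 points at Slc2a2 (exact p = 0.44) and 4.07 points at Treh (exact p = 0.56). Leaving out the second Fed (+Tetra) list kept only the first list in that group, again without scaling. In H3K27ac 0 of the 10 genes were then higher with tetracycline (median -1.54 points), beside 23.3% of all genes (median -0.74). In H3K9ac 6 of 10 were higher (median 0.50 points), beside 41.7% of all genes (median -0.17). With coverage divided by covered length, 10 and 8 of the 10 genes were higher with tetracycline in H3K27ac and H3K9ac, beside 51.4% and 45.9% of all genes. Every adjusted p for tetracycline at these genes was 1.0.

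**Figure D4:**
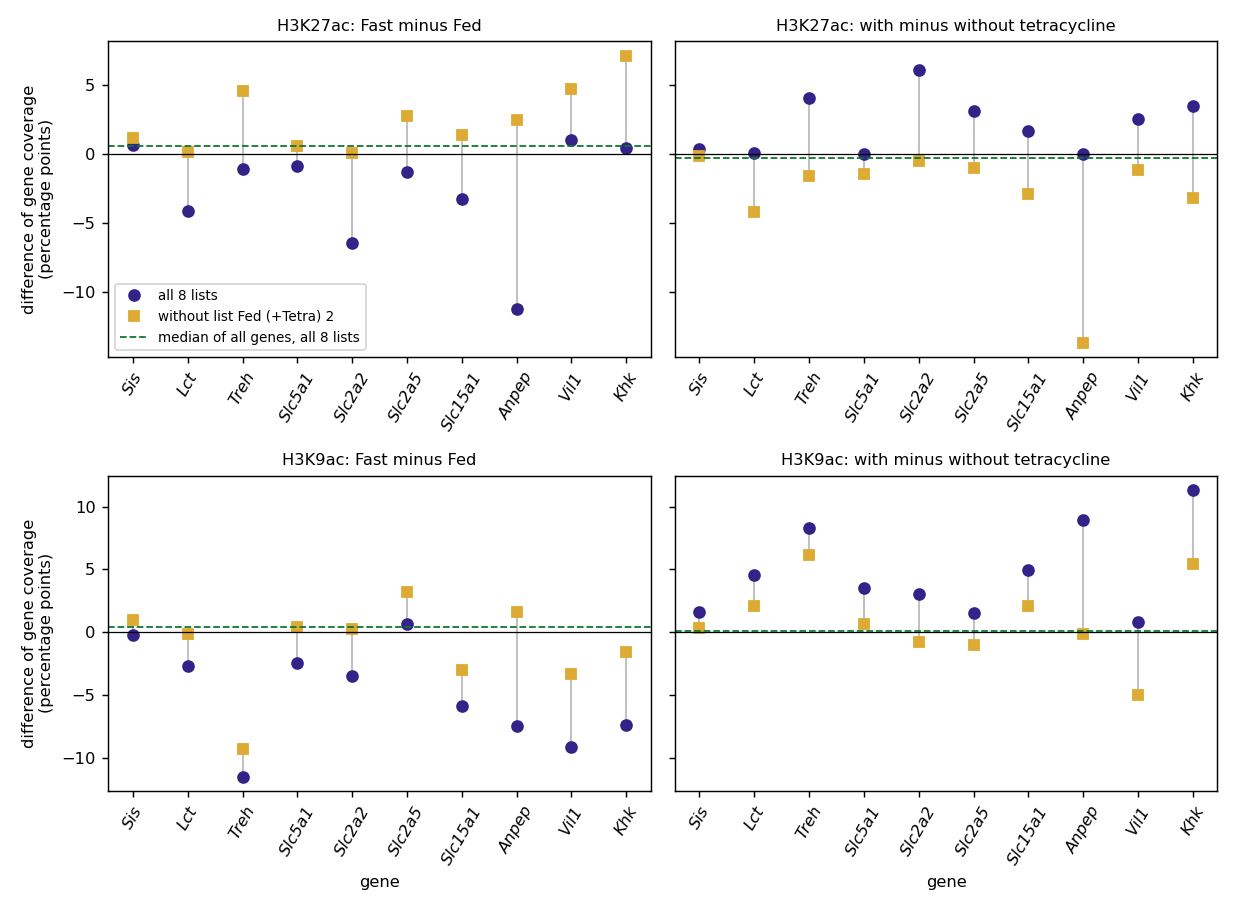
Difference of gene coverage in percentage points at the 10 genes, Fast minus Fed (left) and with minus without tetracycline (right), in H3K27ac (top) and H3K9ac (bottom). Circles use all 8 lists, and squares leave out the second Fed (+Tetra) list, so that this group keeps its first list only. The dashed line is the median of all genes. In H3K27ac the 7 negative fasting differences turned positive without the second Fed (+Tetra) list, and the 8 positive tetracycline differences turned negative.

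The list numbers themselves went with coverage. List 2 was above list 1 in all 4 groups for 8 of the 10 genes in H3K27ac (20.0% of all genes) and 6 of 10 in H3K9ac (9.27%). Compared between lists of the same number, 5 genes (Sis, Lct, Treh, Slc5a1 and Khk) were higher in H3K9ac with tetracycline in all 4 pairs, as were 5.24% of all genes. In the same pairs 1 gene, Slc5a1, was lower in Fast in all 4 (2.9% of all genes). In H3K27ac no gene moved one way in all 4 pairs for either contrast. Exact sign flips of 4 pairs allow no p below 0.125.

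Peaks of the 8 lists of a mark that overlapped were merged into regions, of which the 10 loci held 203 for H3K27ac and 316 for H3K9ac. Peaks in all 8 lists were found for 56 H3K27ac regions (27.6%), against 14.6% of all H3K27ac regions. For H3K9ac the number was 13 (4.11%), against 1.52%. All 56 and all 13 overlapped a region of the other mark, as did 138 of the 203 and 152 of the 316 regions in the 10 loci. This share was not computed over all regions of either mark. By position, 9 of 13 H3K27ac regions at gene starts, 8 of 55 in gene bodies and 38 of 131 in flanks had peaks in all 8 lists. The corresponding H3K9ac numbers were 7 of 13, 2 of 89 and 4 of 208, so that the H3K9ac regions found in every list were mostly at starts and the H3K27ac ones mostly in flanks. As a share of regions, however, H3K27ac too was in every list most often at starts (69.2%, against 29.0% in flanks). Some of those flank regions lay at ends of other genes, among them Ubxn4, Mcm6 and Preb.

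The flanks of the 10 loci differed in what else they held. None of the H3K27ac flank peaks of Sis, Treh, Slc5a1, Slc2a2 and Slc15a1 lay within 1 kb of another gene's end. The share was 10% for Anpep, 28.6% for Slc2a5, 44.1% for Vil1, 56.0% for Khk and 59.4% for Lct. None of the 10 had flank coverage that separated Fast from Fed or tetracycline from no tetracycline. In H3K27ac 5.4% of all genes had flanks higher in all 4 Fast lists and 0.158% lower, with 0.142% higher and 1.3% lower with tetracycline. In H3K9ac the shares were 3.48%, 0.229%, 0.421% and 0.178%.

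One region in the 10 loci had peaks in all 4 lists of one feeding state and none of the other. It was an H3K9ac region in the upstream flank of Slc2a5, chr4:150093402-150094426, 25.4 kb from the start, 1025 bp long, with peaks in the 4 Fast lists at a median percentile of 40.0. Of all H3K9ac regions, 0.0189% had this pattern. An H3K27ac region over the same place, chr4:150092532-150094528, had peaks in all 8 lists. Both regions lay between the ends of the neighbouring gene Gpr157. The H3K9ac region was lost when only the peaks above each list's median score were used. No region of the 10 loci was specific to Fed lists or to either tetracycline state in either mark.

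A further 55 genes related to sugar and peptide handling were listed, among them genes of sugar metabolism and of microvillus structure. H3K27ac marked an end of 32 of them in all 8 lists (33.6% of all genes), and H3K9ac of 18 (21.1%). None of the carbohydrases, peptidases or peptide transport genes had groups that separated. In H3K9ac Slc37a4, the glucose 6-phosphate carrier of the endoplasmic reticulum, was lower in all 4 Fast lists (mean coverage 20.2% against 50.4% in Fed), as were 0.635% of all genes. With tetracycline, Slc2a1 (GLUT1) was lower in H3K27ac (10.7% against 15.3%), as were 1.29% of all genes. The microvillus adhesion genes Cdhr5 (H3K27ac, 26.1% against 24.5%) and Cdhr2 (H3K9ac, 15.0% against 10.03%) were higher, beside 0.223% and 0.694% of all genes. No adjusted p over all genes passed 0.05.

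Over the series, H3K27ac lists held 32392 to 68545 peaks and H3K9ac lists 17249 to 99050. All 10 epithelial markers (such as Epcam and Cdx2) had an H3K27ac peak at a gene end in every list. Of the crypt base markers, 0 to 3 of 8 were marked by H3K27ac in the Fed lists and 3 to 5 in the Fast lists, and Ang4 was marked in none. The share of all genes marked in each list was not computed, and 72.4% of all genes had higher H3K27ac coverage in Fast. Of 10 villus enterocyte markers, 7 were marked in all 8 lists. Of 10 immune markers, 2 to 6 were marked in Fed lists and 5 to 7 in Fast lists. Cd79a was marked in all 8 lists, and Cd3e, Cd3g, Cd8a and Itgam in 6 each, while those marked in none included Cd4 and Csf1r. Of 10 mesenchyme, vessel and muscle markers, 0 to 2 were marked. Of 10 markers of other tissues, 0 to 2 were marked in a list, Sftpc in 6 lists and Acta1 in 5, and 8 were marked in none.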

How the data were processed

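CUT&Tag peak lists of H3K27ac and H3K9ac were used from 8 samples, 2 lists each. Bowtie, SAMtools, FastQC and build mm10 are named in the submitters' processing notes. The peak names begin with MACS; its version, cutoff and use of IgG are not given in the sources used here. Each deposited list gives, per peak, a position and the authors' score, of at least 50 and with no stated unit, used only to rank peaks within a list. The file names describe downsampled data, and read depth is unknown, so no interval is given and levels of the 2 marks are not compared.

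From the lists (chromosomes 1 to 19, X and Y) the presence of peaks within 1 kb of gene ends and the percent of the gene window covered were computed for 21883 RefSeq protein-coding genes (GRCm38.p6), with strand from the RefSeq promoter table for 17491. Feeding and tetracycline were tested by exact permutation within strata over 36 arrangements, with Benjamini-Hochberg adjustment over all 21883 genes. The count of non-overlapping genes was tried over 21883 genes on H3K27ac lists whose peaks had been shuffled within chromosomes. Each planted change was 1 peak over a fixed share of the gene window, the same in every Fast list. The count recovered 193 of 200 such changes. Smaller changes, and the spread between lists seen at the 10 genes, were not simulated. All 10 genes are named whatever their values. Other pathway genes are named where groups did not overlap. For regions, each gene's start region, its strongest distal H3K27ac region found in every list, and regions separating groups are named; further regions were named after their values were seen. The genes and lists were chosen with earlier results of these data known. Deviations of lists from their group means correlated between groups at 0.131 to 0.456 by list number in H3K27ac and 0.0793 to 0.331 in H3K9ac; the numbers come from file names. Alternatives changed score, width, number of peaks, scaling, distance, flank length and lists used. Python 3.11.15, numpy 2.4.6, pandas 2.3.3 and matplotlib 3.10.9 were used.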

Additional observations from a re-analysis of the deposited data

How the results depend on the processing

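Of 308 values of the comparisons under alternatives, 269 kept within the spread or within 1.5 times the count and 39 did not. Of 600 values for single genes, 101 changed sign, and 5 moved by more than the spread between lists. That spread was wide. For the median H3K27ac coverage of the 10 genes it was 9.57 points. The move of the fasting difference from -1.20 to 1.88 without the second Fed (+Tetra) list thus counted as kept. These counts are therefore no measure of stability. The ranges that follow come from leaving out lists. In H3K27ac, genes lower in Fast ranged from 0 to 9 of 10, and genes higher with tetracycline from 0 to 10. Genes with all Fast lists above Fed ranged from 0 to 2 and below from 0 to 4, and with tetracycline above from 0 to 3 and below from 0 to 1. In H3K9ac, genes lower in Fast ranged from 5 to 10, those higher with tetracycline from 6 to 10, those with all Fast lists below Fed from 0 to 6, and those with all tetracycline lists above from 0 to 5. The lists whose removal moved a count of genes lower in Fast or higher with tetracycline by over 1.5 times were, besides the second Fed (+Tetra) list, in H3K27ac the second Fed (-Tetra) list (4 lower in Fast), and the first Fed (-Tetra) and first Fast (-Tetra) lists (4 and 3 higher with tetracycline). Taking pairs of the same list number as a replicate block gave 1 H3K9ac gene lower in Fast and 5 higher with tetracycline, against 0 each, and changed no other call. Genes with all H3K9ac Fast lists below Fed numbered 1 with the same number of top peaks per list, 1 with peaks of at least 500 bp and 2 with coverage scaled to covered length; scaling gave 1 such gene in H3K27ac.

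Keeping the peaks above each list's median score left 5 genes with an H3K27ac gene-end peak in all lists. Regions in the 10 loci then fell to 97 (H3K27ac) and 160 (H3K9ac), and with equal numbers of top peaks to 131 and 121. H3K9ac regions in all 8 lists numbered 6 under both. The median score gave 1 H3K27ac and 0 H3K9ac regions with peaks in every Fast list and in no Fed list, and equal numbers gave 0 in H3K9ac, with 1 in every Fed list and in no Fast list. Fewer peaks enter both alternatives by construction. Depth is unknown, so an absent peak sets no upper limit on the mark, and 2 lists a group set the smallest p.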
